A study of Mus musculus with 44 samples.

Results

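Sox9, Sox5, Sox6, Sox4, Sox11 and Sox8 are the Sox transcription factors of cartilage and mesenchyme, and they were taken by symbol as 6 of the 46831 genes of the count table. Their mRNA and their m6A signal were followed in skeletal cells of C57Bl6 mice at postnatal day 3 that had received no treatment. Cells of the long bones were sorted by flow cytometry, and RNA was measured by SLIM-seq, in which an m6A antibody pulls down modified RNA (IP) and the unselected RNA (input) is sequenced beside it. There were 44 libraries, with 2 of IP and 2 of input for every one of 8 wild-type (WT) populations and 3 populations labelled Mettl3cko. The stem and progenitor populations are the skeletal stem cell (SSC), the pre-BCSP (pBCSP in the study) and the bone, cartilage and stromal progenitor (BCSP). The downstream populations are PCP (pro-chondrogenic progenitors), THY, BLSP (B-cell lymphocyte stromal progenitors), 6C3 and HEC (hepatic leukemia factor expressing cells). Mettl3cko mice were Mettl3 fl/fl mice crossed with Col2a1-Cre, whose Col2a1 promoter drives the recombinase in cells of the cartilage lineage and not in every cell of the bone. The study uses the name WT for its Mettl3 fl/fl control mice. The Cre status and floxed alleles of the WT mice are not given in the labels, where wild type is also the entry for genotype throughout. The titles alone mark 12 libraries as Mettl3cko.

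Sox proteins bind DNA through an HMG box, a domain that inserts into the minor groove and bends the helix. Sox9 is the master factor of chondrocyte fate and directly activates genes of the cartilage matrix. Sox5 and Sox6 lack an activation domain of their own, and they bind next to Sox9 at cartilage enhancers and strengthen its action. Sox8 belongs with Sox9 to the SoxE group. Sox4 and Sox11 belong to the SoxC group, which acts in mesenchymal and neural progenitors and in the joint and growth plate primordia of the embryo. m6A is a methyl mark on adenosine of mRNA, written by a complex whose catalytic subunit is Mettl3 and read by proteins that change the stability and translation of the transcript.

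The pairing of the 6 genes into groups can be read from 237 coding bases of the HMG box. The 27 coding bases printed here lie near the start of that box and do not show the pairing by themselves. They are shown because the box is the part that all 6 proteins share. Capitals mark the 21 bases shared by all 6 genes. The sequences are from the GRCm38 genome and the GENCODE vM21 coding annotation.
Sox9: CGaCCcATGAAcGCcTTcATGGTgTGG
Sox8: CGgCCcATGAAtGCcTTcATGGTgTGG
Sox5: CGtCCaATGAAtGCcTTcATGGTgTGG
Sox6: CGaCCaATGAAtGCgTTcATGGTtTGG
Sox4: CGgCCcATGAAcGCcTTtATGGTgTGG
Sox11: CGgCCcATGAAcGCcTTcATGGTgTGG
Over 237 coding bases of the HMG box, identity was 86.5% between Sox9 and Sox8, 82.7% between Sox5 and Sox6 and 88.2% between Sox4 and Sox11. All other pairs of the 6 genes shared 53.2% to 71.7% of these bases. Sox9 lies at chr11:112782224-112787760 on the plus strand, and the other 5 genes lie on minus strands. Sox8 is at chr17:25565892-25570686, Sox5 at chr6:143828425-144781977, Sox6 at chr7:115470872-116038796, Sox4 at chr13:28948919-28953713 and Sox11 at chr12:27334264-27342574. Sox4 and Sox11 are genes of 1 exon. The library method does not mark strand, and exons on the opposite strand overlap Sox4 (Gm26735, 2616 bp), Sox5 (Sox5os1, 1330 bp) and Sox8 (2810468N07Rik, 329 bp). Within these stretches, reads of the partner cannot be told apart from those of the Sox gene. Sox5os1 and 2810468N07Rik are also genes of the count table, and Gm26735 is not.

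WT input libraries held 19795666 to 44046651 counts and WT IP libraries 16480027 to 35856651, against 30050178 to 35325482 and 22056571 to 33126857 in Mettl3cko. The 2 libraries of every condition differed beyond sampling noise and were counted as separate replicates. Replicates were called independent experiments in the study, and the p-values below measure the spread between them. In WT, Thy1 (a sort marker) was at 17.3 to 33.3 CPM (the read count relative to the TMM-scaled library size) in PCP, THY and BLSP and at most 0.423 CPM elsewhere, and Enpep, the 6C3 antigen, was at 40.5 to 54.5 CPM in 6C3 and HEC and at most 8.07 elsewhere. Ptprc, which encodes CD45, had no count in the 6 WT stem and progenitor input libraries. The summed level of 8 chondrocyte markers was 100600 to 122600 CPM in the WT stem and progenitor libraries, 71830 to 93820 in HEC, 39630 to 80890 in 6C3, 15870 to 18730 in PCP, 13400 to 15610 in BLSP and 5322 to 5667 in THY. PCP, labelled pro-chondrogenic, thus had a lower sum than 6C3 or HEC. Most of this sum was Col2a1, at a mean of 14340 CPM in PCP, 52280 in 6C3 and 72770 in HEC. Against the mean of the other downstream populations, Col2a1, Acan, Col9a1, Hapln1 and Cnmd had negative log2 differences in PCP (-0.26 to -0.90). Those of Matn1, Matn3 and Ucma were positive (1.53, 0.75 and 0.07). Only Col9a1 and Hapln1 passed adjusted p below 0.05 (edgeR). The sum of 8 osteoblast markers was 5197 to 11520 CPM in the WT stem and progenitor libraries and 62260 to 141500 CPM in the downstream libraries. The part of these cell types in the Sox differences between populations was not tested.

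Sox9 had the highest level per kilobase of the 6 mRNAs in SSC. Averaged over populations, 5 of the 6 were higher in stem and progenitor cells than downstream, with Sox4 as the exception. Over all genes, 23.1% were called higher and 28.3% lower in this contrast (edgeR). With populations as units, Sox9, Sox5 and Sox11 did not reach p below 0.05 (exact permutation test, values below). Per kilobase of exon in SSC input, Sox9 was at 1244 CPM per kb, Sox8 at 20.7, Sox11 at 13.3, Sox5 at 11.6, Sox6 at 6.79 and Sox4 at 3.39. The length is that of all annotated exons of a gene merged, 14376 bp for Sox5 and 14832 bp for Sox6. Their longest coding transcripts have 7243 and 8668 bp, so the order of the genes below Sox9 depends on the length used. The populations fell into a high group of SSC, pre-BCSP, BCSP, 6C3 and HEC and a low group of PCP, THY and BLSP for Sox9 and Sox5, whereas Sox8 was high in the stem and progenitor populations alone. These are bulk libraries, in which fewer cells of a type and less RNA per cell cannot be told apart.

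**Figure D1:**
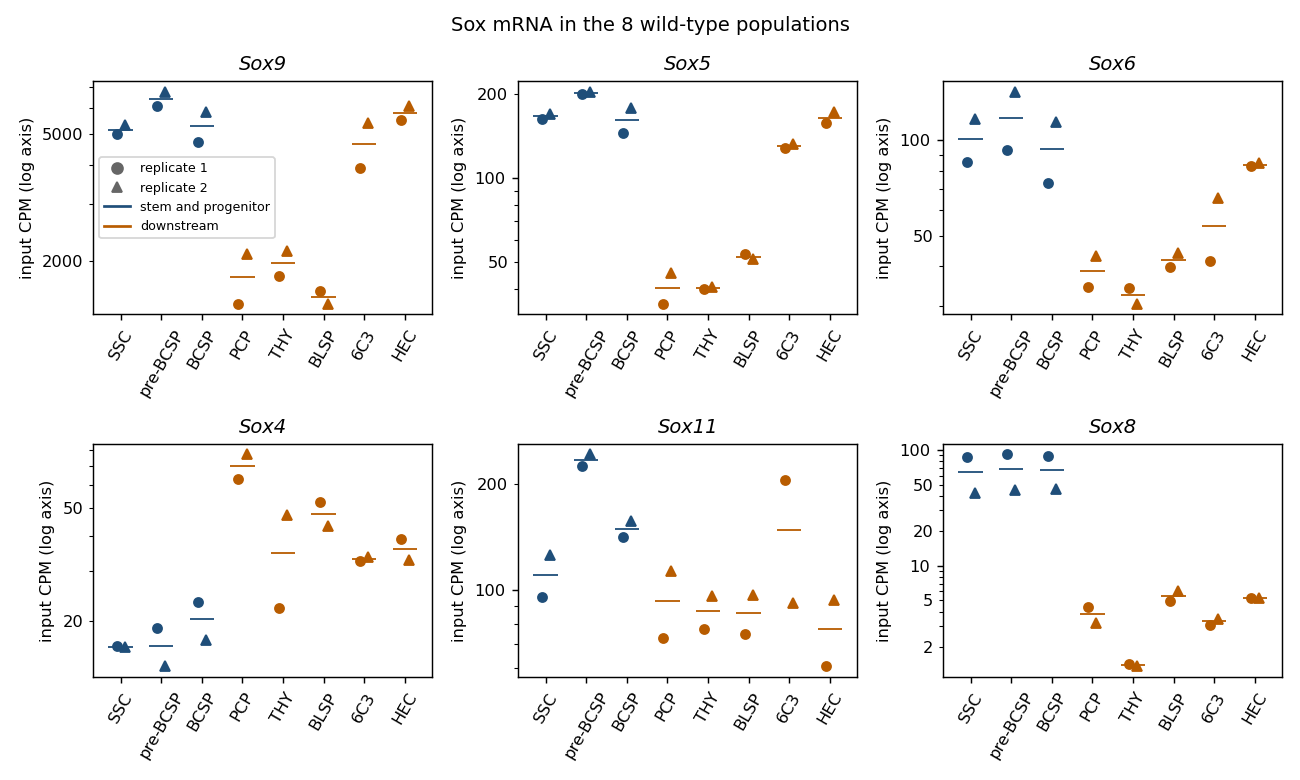
Input CPM (log axis) of the 6 Sox genes in the 8 WT populations. Circles and triangles are the 2 replicates and lines their mean; Sox8 lies between 42.8 and 91.5 CPM in stem and progenitor cells and at most at 5.99 CPM downstream, while Sox4 is lowest in SSC and highest in PCP.

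Sox9 ranged from 4698 to 6773 CPM (median 5574) in the 6 stem and progenitor libraries and from 1464 to 6092 CPM (median 2118) in the 10 downstream libraries. The ranges overlapped because HEC (5514 and 6092 CPM) and 6C3 (3900 and 5384 CPM) were at the level of the stem and progenitor cells. Averaged over populations, the log2 difference was 0.96 (SE 0.11, adjusted p = 3.09e-06, edgeR quasi-likelihood test), against a background of 51.4% of 20060 genes called in either direction and 23.1% called higher in stem and progenitor cells. The 3 lowest populations stood apart from the other 5. The means were 1534 ± 97.6 CPM in BLSP, 1780 ± 447 in PCP and 1966 ± 245 in THY (SD, n = 2), and 6C3 stood above THY by 1.18 on the log2 scale (adjusted p = 0.00514, edgeR). No other neighbours in the order of Sox9 differed at adjusted p below 0.05.

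Sox8, the SoxE partner of Sox9, showed the widest range of the 6 genes. In SSC its replicates were at 86.5 and 42.8 CPM, in pre-BCSP at 91.5 and 44.9 and in BCSP at 88.6 and 45.6, so that replicate 1 lay above replicate 2 in each of these populations. The 10 downstream libraries lay between 1.35 and 5.99 CPM. No downstream library reached a stem or progenitor library, which held for 9.05% of the genes tested (16.7% in either direction). The log2 difference was 4.18 (SE 0.20, adjusted p = 1.8e-10, edgeR). The mean of pre-BCSP was 49.6 times that of THY, which had the lowest mean at 1.38 CPM.

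Sox5 followed Sox9. Stem and progenitor libraries held 145 to 205 CPM of Sox5 (median 174) and downstream libraries 35.3 to 172 CPM (median 52.2). HEC (158 and 172 CPM) and 6C3 (129 and 132 CPM) again lay near the stem and progenitor cells, and PCP (35.3 and 45.5), THY (40.03 and 40.6) and BLSP (53.4 and 51.0) lay apart from them. The log2 difference between stem and progenitor cells and downstream cells was 1.22 (SE 0.09, adjusted p = 3.52e-08, edgeR). The only neighbours in the order of Sox5 that differed were 6C3 and BLSP (log2 difference 1.29, adjusted p = 0.000605, edgeR).

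Sox6 ran from 73.3 to 142 CPM (median 104) in stem and progenitor cells and from 30.5 to 84.5 CPM (median 42.4) downstream. Only HEC (82.7 and 84.5 CPM) reached into the range of the stem and progenitor libraries. The log2 difference was 1.05 (SE 0.14, adjusted p = 1.61e-05, edgeR). No neighbours in its order of levels differed, from pre-BCSP (118 ± 34.6 CPM, SD, n = 2) down to THY (32.4 ± 2.69).

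The SoxC genes Sox4 and Sox11 went different ways. Sox4 was at 13.9 to 23.5 CPM (median 16.8) in stem and progenitor cells and at 22.3 to 77.2 CPM (median 41.1) downstream, with PCP on top (63.4 and 77.2 CPM) and a wide gap between the THY replicates (22.3 and 47.4 CPM). Sox4 was lower in stem and progenitor cells by a log2 difference of -1.36 (SE 0.16, adjusted p = 2.98e-06, edgeR), where 28.3% of the genes tested were called lower.

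Sox11 was at 95.3 to 242 CPM (median 149) in stem and progenitor cells and at 60.6 to 205 CPM (median 92.8) downstream. Its highest libraries were those of pre-BCSP (224 and 242 CPM), and the replicates of 6C3 were far apart (205 and 91.7 CPM). The log2 difference was 0.63 (SE 0.17, adjusted p = 0.00482, edgeR), the smallest of the 6. No neighbours in the order of Sox4 or of Sox11 differed at adjusted p below 0.05.

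All 6 genes passed the test of stem and progenitor against downstream cells in each of the 16 fits that left out 1 library. The 6 stem and progenitor libraries are not independent samples, since deviations of the same replicate number correlated between these populations at 0.125 to 0.159. The populations rather than libraries can also be taken as units, with 56 ways to split 8 population means into 3 and 5 and a smallest possible p of 0.0179. In this exact permutation test (two-sided), p was 0.0179 for Sox8 and Sox4, 0.0357 for Sox6, 0.0536 for Sox5 and Sox11 and 0.0714 for Sox9. The mean levels across all 8 populations differed for all 6 genes (adjusted p from 3.53e-08 for Sox8 to 0.011 for Sox11, edgeR), where 40.1% of genes passed.

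Pairs of populations show where the differences lay. Sox9, Sox5, Sox6 and Sox8 were higher, and Sox4 lower, in 9 of 9 pairs of a stem or progenitor population with PCP, THY or BLSP, and Sox11 was higher in 3 of 9, where 27% of all gene and pair combinations were called. Against 6C3 and HEC, Sox9 passed in 0 of 6 pairs, with log2 differences from -0.24 to 0.40. Sox8 passed in 6 of 6 (3.55 to 4.30), Sox4 was lower in 5, Sox6 was higher in 2, and Sox5 and Sox11 were higher in 1 each (background 22.5%). Between 6C3 or HEC and PCP, THY or BLSP, Sox9 was higher in 6 of 6 pairs (log2 1.18 to 1.89) and Sox5 in 6 of 6 (1.29 to 2.01), where the background was 6.6%. Sox6 was higher in 2 of these 6 pairs, Sox8 in 1 and Sox11 in 0, and Sox4 was lower in 2. Among SSC, pre-BCSP and BCSP themselves, none of the 6 genes passed in any of the 3 pairs by edgeR, against a background of 0.955%.

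PCP was compared with the other downstream populations because of its label. Sox9 was lower in PCP than in the mean of THY, BLSP, 6C3 and HEC by a log2 difference of -0.76 (SE 0.19, adjusted p = 0.0293, edgeR) and Sox5 by -1.02 (SE 0.16, adjusted p = 0.00108), while Sox4 was higher by 0.90 (SE 0.22, adjusted p = 0.0244), with 4.09% of genes called. Sox6 (-0.36, adjusted p = 0.538), Sox11 (-0.05, adjusted p = 0.975) and Sox8 (0.16, adjusted p = 0.906) did not pass. Over the 16 fits that left out 1 library, Sox9 ran from -1.07 to -0.49, Sox5 from -1.25 to -0.83 and Sox4 from 0.72 to 1.07. Without PCP input replicate 1 the values were -0.49, -0.83 and 1.07. None of the 3 calls held in every fit, and those of Sox9 and Sox4 were lost in more fits than that of Sox5. In single pairs, Sox9, Sox5 and Sox4 of PCP passed against 6C3 and against HEC, but against neither THY nor BLSP (edgeR). The log2 difference of PCP from THY was -0.18 for Sox9, -0.04 for Sox5 and 0.97 for Sox4. From BLSP it was 0.21, -0.38 and 0.55. The endothelial marker sum (9 of 9 genes found) was 133 to 156 CPM in PCP and 14.6 to 22.1 CPM in the other downstream libraries, the stromal sum (6 of 6) was 1250 to 2553 CPM against 204 to 655, and the tendon and joint sum (5 of 5) was 866 to 943 CPM against 1263 to 8129. The part of these cells in the Sox values of PCP was not tested.

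Among WT input libraries, the levels of Sox9, Sox5 and Sox6 were correlated. Over the 16 libraries, Pearson's r of log2 CPM was 0.964 between Sox9 and Sox5, 0.898 between Sox5 and Sox6 and 0.871 between Sox9 and Sox6, and it was negative between Sox4 and each of the other 5 genes (-0.533 to -0.767). These libraries come from 8 populations and the values describe them only. The genes most like Sox9 among 20060 were Eps8l2 (r = 0.979), Fam20b (0.974) and Arsj (0.970). Those most like Sox5 were Trpv4 (0.977), Sorbs2 (0.974) and Zfp648 (0.973), and those most like Sox6 were Efnb1 (0.969), Tiam2 (0.957) and Creb3l2 (0.951). Sox8 was closest to Rnf114 (0.982), Stc2 (0.978) and Adhfe1 (0.973), Sox4 to Ttc28 (0.942), Scarf2 (0.938) and Bcl3 (0.936), and Sox11 to Abhd16a (0.892), Tmem170b (0.869) and Kansl2 (0.866).

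The genes that the Sox trio is known to act on were followed through lists of cartilage genes. Of 17 cartilage matrix genes bound or activated by Sox9, Sox5 and Sox6, 16 were higher in stem and progenitor cells and 0 lower, with a median log2 difference of 2.44 against -0.11 over all genes tested. Over all genes, 23.1% were higher and 28.3% lower in this contrast. The largest differences were those of Matn1 (7.41, SE 0.36), a matrilin of the matrix, Epyc (6.23, SE 0.25), a small proteoglycan, and Snorc (4.05, SE 0.16), a proteoglycan of chondrocytes, and Matn4 was at 0.32 (adjusted p = 0.0644, edgeR). Of 22 chondrocyte transcription factors and Sox9 partners, 10 were higher and 3 lower (median 0.27), a total of 13 of 22 beside the 51.4% of all genes called. They were led by Foxa2 (4.93, SE 0.34), Runx3 (3.39, SE 0.17) and Foxa3 (2.25, SE 0.19), which act in chondrocyte hypertrophy. Of 9 hypertrophic chondrocyte genes, 7 were higher and 2 lower (median 0.99), led by Ihh (6.20, SE 0.24), a hedgehog ligand, Col10a1 (5.60, SE 0.42), the collagen of hypertrophic cartilage, and Panx3 (4.80, SE 0.29), a pannexin channel. In PCP against the other downstream populations, 0 matrix genes were higher and 3 lower, 5 transcription factors were higher and 0 lower, and 7 hypertrophic genes were higher and 0 lower, against 3.15% of all genes higher and 0.947% lower.

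**Figure D2:**
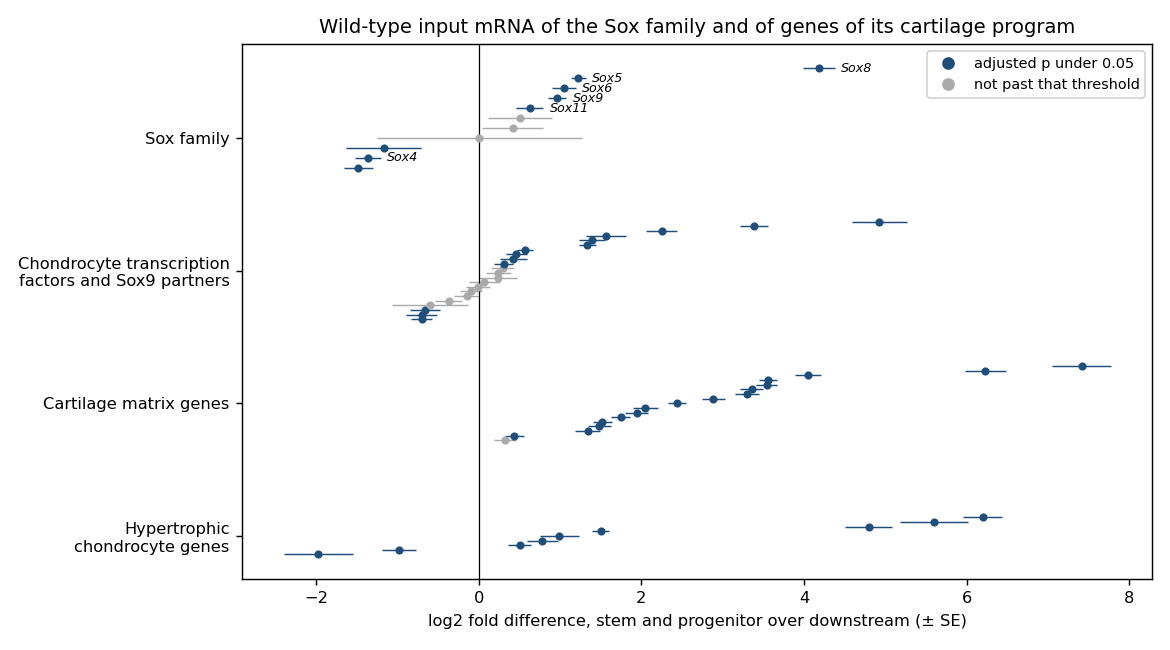
Log2 difference of WT input mRNA between stem and progenitor cells and downstream cells (horizontal axis, bars are SE) for Sox family genes and 3 lists of cartilage genes; each point is a gene, dark where adjusted p was below 0.05. The matrix genes lie to the right of 0, up to Matn1 at 7.41, and Sox4 lies to the left at -1.36; 4 Sox genes with a population group at 0 (Sox2, Sox17, Sox18 and Sox21) are not drawn.

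The other genes of the Sox family were at low levels. Of the 19 family genes in the table, 15 passed the filter on low counts, and besides the 6 described here, Sox7, an endothelial factor, was lower in stem and progenitor cells (log2 difference -1.48, adjusted p = 3.62e-06, edgeR), as was the SoxD gene Sox13 (-1.17, adjusted p = 0.0425). Sox7 was highest in PCP at a mean of 22.3 CPM, as were the endothelial factors Sox17 (7.56 CPM) and Sox18 (3.44 CPM). Sox10, a factor of Schwann cells and other neural crest cells, was highest in BLSP at 26.1 CPM, as were Sox13 (3.58 CPM), Sox2 (4.09 CPM) and Sox21 (0.648 CPM). In BLSP the sum of 6 Schwann and glial markers was 1355 to 1385 CPM, against 26.4 to 278 CPM in the other WT downstream libraries. The highest population means were 1.79 CPM for Sox12 and 0.543 for Sox30, both in BCSP, 0.136 for Sox15 and 0.126 for Sox1, both in pre-BCSP, and 0.0818 for Sox3 in 6C3. Sox14 had no count in any WT input library.

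The log2 ratio of IP over input, a relative measure of m6A on an mRNA, had 1 sign in all 8 WT populations by the fitted value for each gene but Sox11, which was positive in 6. Sox6 and Sox4 were above 0 in all 16 WT replicates, Sox5 was below 0 in all 16, Sox9 and Sox8 were below 0 in 15 of 16 each, and Sox11 was above 0 in 12. The share of all genes that kept 1 sign was not counted, so these signs describe the 6 genes only. At an unadjusted p below 0.05, 24.6% (BCSP) to 43.7% (HEC) of genes differed between IP and input (edgeR). Each ratio is the log2 of IP over input CPM of 1 replicate number, which the study made from cells of 1 sort. The WT medians were 0.54 for Sox6, 0.64 for Sox4, 0.24 for Sox11, -0.37 for Sox5, -0.78 for Sox9 and -1.65 for Sox8. Replicate spread was wide for some conditions, such as 0.05 and -1.37 for Sox9 in SSC, -1.26 and 0.26 for Sox11 in 6C3 and -5.83 and 0.28 for Sox8 in THY. The value of -5.83 comes from 0 IP counts and 32 input counts and is set by the count added before the log.

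**Figure D3:**
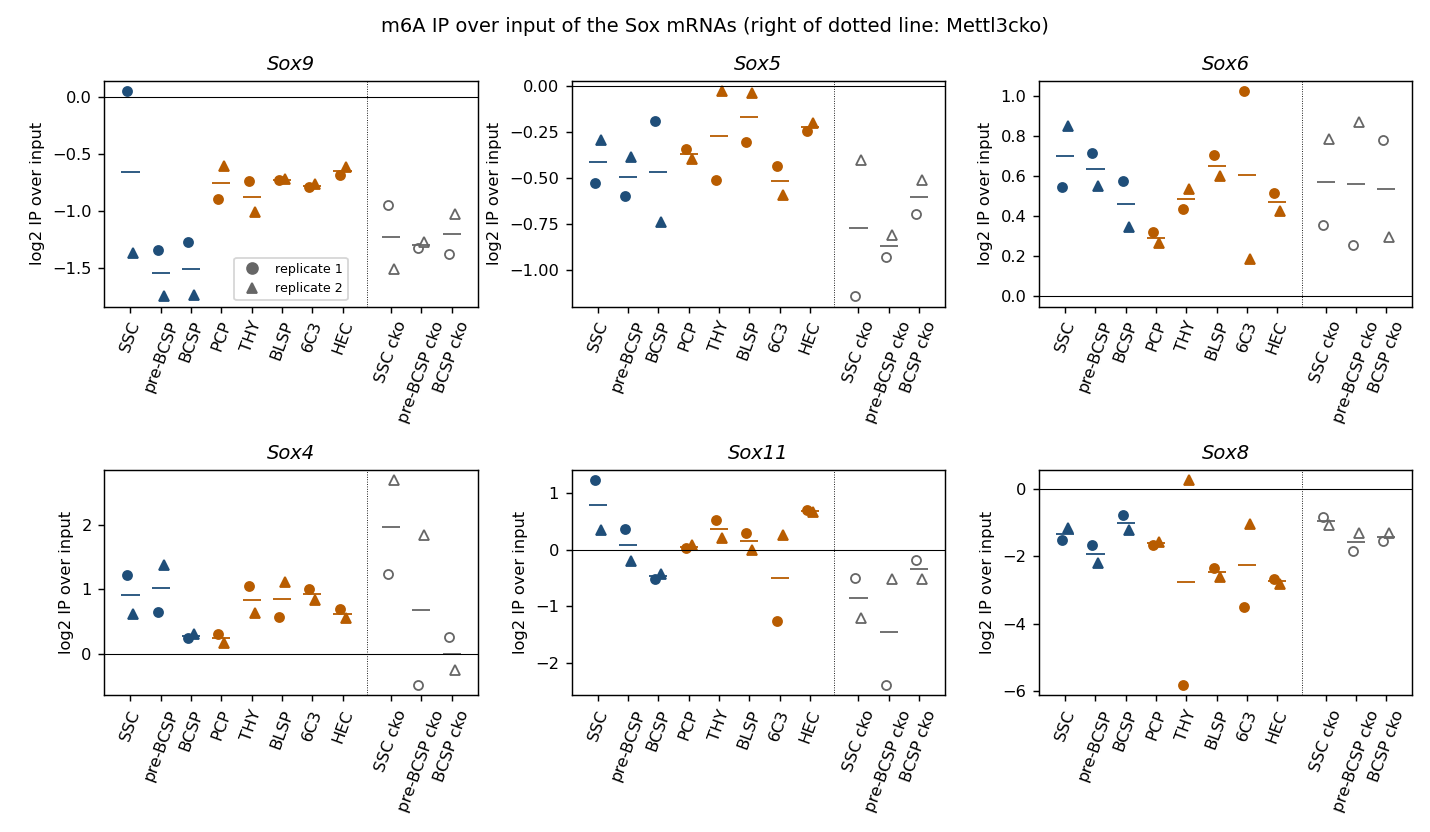
Log2 IP over input of the 6 Sox genes by population and replicate (circles and triangles; lines are means; open symbols right of the dotted line are Mettl3cko). Sox6 and Sox4 lie above 0 in all 16 WT replicates, and Sox5 lies below 0 in all 16; the Sox8 point at -5.83 in THY had 0 IP counts.

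In the 48 tests of 6 genes in 8 WT populations, 6 gave a higher IP and 7 a lower IP at adjusted p below 0.05 (edgeR), where over all genes 8.53% of tests were higher and 11.3% lower. These counts were 9 and 9 by DESeq2, 3 and 8 in 1 joint fit over all populations and 6 and 11 with no filter on low counts. Sox9 was lower in the IP in 5 populations, with log2 values of -1.46 (SE 0.14) in pre-BCSP, -1.48 (SE 0.21) in BCSP, -0.85 (SE 0.16) in THY, -0.79 (SE 0.13) in BLSP and -0.58 (SE 0.12) in HEC. Sox8 was lower in BLSP (-2.56, SE 0.49) and HEC (-2.70, SE 0.53). Sox4 was higher in pre-BCSP (1.08, SE 0.28), 6C3 (0.92, SE 0.24), BLSP (0.78, SE 0.18) and HEC (0.69, SE 0.20), and Sox6 was higher in BLSP (0.59, SE 0.15) and HEC (0.54, SE 0.14). With 1 library left out, all these log2 values kept their sign. The calls of Sox4 and Sox6 and that of Sox8 in BLSP were lost in some of these fits, and those of Sox9 were kept. Sox5 (-0.16 to -0.51) and Sox11 (-0.61 to 0.90) passed in no population by the adjusted p of edgeR.

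IP and input of 1 replicate number came from the same sort, and a fit with this pairing as a block gave 8 higher and 10 lower tests (edgeR). It added Sox9 in PCP (-0.80, adjusted p = 0.000514), Sox8 in SSC (-1.24, adjusted p = 0.03) and pre-BCSP (-1.84, adjusted p = 0.00658), Sox4 in THY (0.86, adjusted p = 0.00785), Sox6 in pre-BCSP (0.71, adjusted p = 0.0189) and Sox11 in HEC (0.76, adjusted p = 0.00526). Sox4 in pre-BCSP no longer passed with the block (1.09, adjusted p = 0.0505, edgeR).

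The authors' methods took an mRNA as m6A-tagged at a log2 IP over input above 1 with an unadjusted p below 0.05. By this rule Sox4 was tagged in SSC (1.04, adjusted p = 0.117, edgeR) and in pre-BCSP (1.08, adjusted p = 0.0483, edgeR), and none of the other 5 genes was tagged in any WT population. These are 2 of 48 tests, against 11.6% of tests over all genes. Without 1 library, the log2 value of Sox4 ran from 0.66 to 1.30 in SSC and from 0.86 to 1.29 in pre-BCSP. Both ranges lay on either side of the threshold of 1. Other values also rose above 1 in some of these fits. They were Sox6 in SSC (up to 1.12) and pre-BCSP (1.02), Sox11 in SSC (1.10) and HEC (1.07), and Sox4 in THY (1.37). The letters GGACT, a frequent context of m6A, occur 9 times in the Sox4 transcript, or 1.88 per kb, more densely than in 85.6% of 21746 annotated transcripts (median 1.01 per kb). They occur 11 times in Sox11 (1.32 per kb), 9 in Sox6 (1.04), 3 in Sox9 (0.726), 5 in Sox5 (0.690) and 2 in Sox8 (0.667). Only the sense strand was searched, and a match is a description of the sequence and not a modified site. With counts per gene, the position of m6A within a transcript was not resolved.

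The ratio did not pass the test of a difference between stem and progenitor cells and downstream cells for any of the 6 genes by edgeR at adjusted p below 0.05, where 4.84% of 25365 genes were called. The log2 differences of the ratio were -0.24 for Sox9, 0.05 for Sox5, 0.30 for Sox6, 0.26 for Sox4, 0.21 for Sox11 and 0.73 for Sox8. Across the 8 populations the ratio passed for none of the 6 genes (0.485% of genes called), and with the pairing as a block it passed for Sox11 (adjusted p = 0.0154, edgeR, against 0.512 without the block). Without WT SSC IP replicate 1, Sox9 passed (-0.65, adjusted p = 0.016, edgeR). A call of Sox8 without WT THY IP replicate 2 is not read here, since the THY library that then remains had 0 IP counts of it.

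Mettl3cko and WT cells were compared to follow loss of the m6A writer. The Mettl3 count itself was not lower in the libraries labelled Mettl3cko. Mettl3 was at 15.8 and 15.9 CPM in WT SSC, 12.5 and 16.6 in pre-BCSP and 18.6 and 20.3 in BCSP, and at 17.0 and 18.9, 23.0 and 23.5, and 16.7 and 18.4 CPM in the libraries labelled Mettl3cko. The log2 difference averaged over the 3 populations was 0.25 (SE 0.15, adjusted p = 0.362, edgeR). The count covers the whole gene and does not resolve the floxed exons, so it checks neither the deletion nor the labels. The study itself reported the deletion by qRT-PCR and by western blot of SSCs, and lower m6A of stem and progenitor RNA by dot blot.

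Sox11 and Sox4 were the Sox genes that stood apart between these genotypes. Sox11 was at 95.3 and 126 CPM in WT SSC and at 413 and 445 CPM in SSC labelled Mettl3cko. In pre-BCSP it was at 224 and 242 CPM against 1296 and 456 CPM, and in BCSP at 141 and 157 CPM against 285 and 337 CPM. Each library labelled Mettl3cko was above every WT library, and pre-BCSP replicate 1 was far above the rest.

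**Figure D4:**
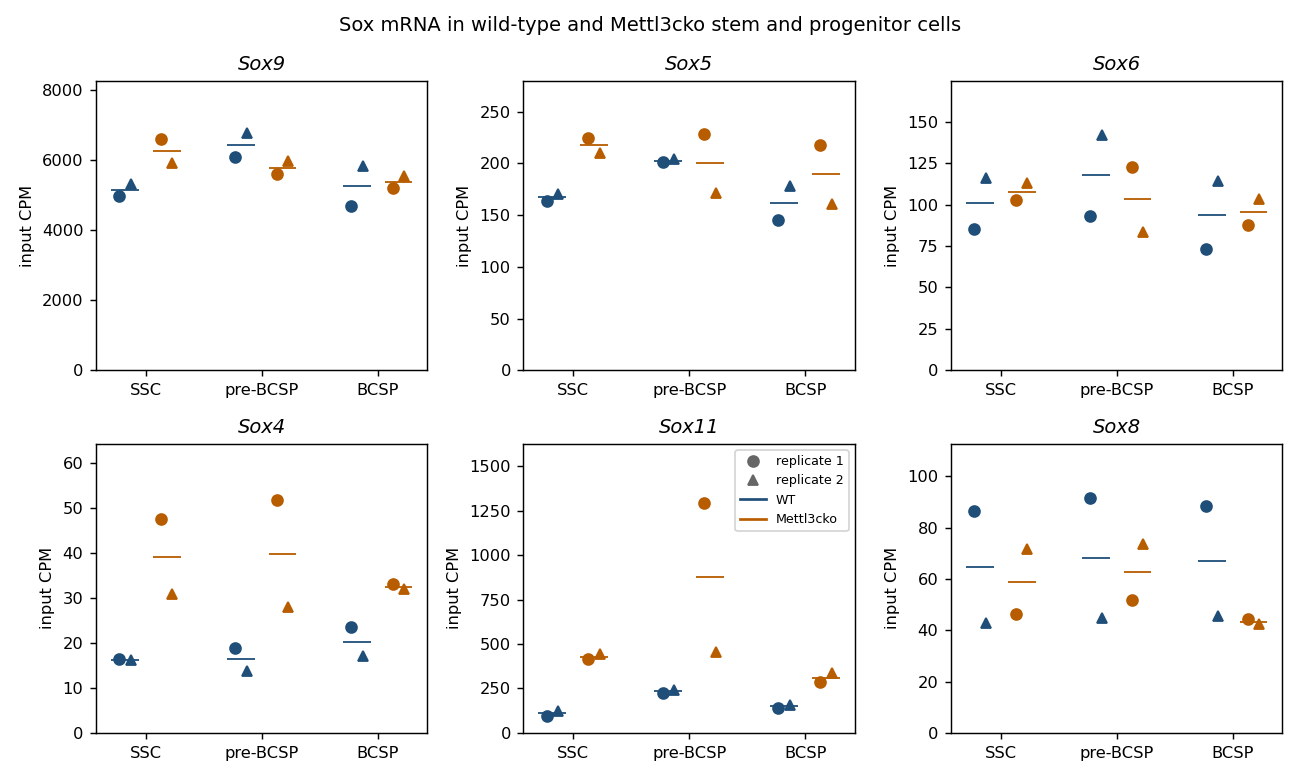
Input CPM (linear axes from 0) of the 6 Sox genes in SSC, pre-BCSP and BCSP, with WT in blue and libraries labelled Mettl3cko in orange; circles and triangles are the 2 replicates and lines their mean. For Sox11 and Sox4 the 6 Mettl3cko libraries lie above the 6 WT libraries, with Sox11 at 1296 CPM in 1 pre-BCSP library, and for the other 4 genes the ranges overlap.

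Sox4 was at 16.4 and 16.2 CPM in WT SSC and at 47.6 and 30.8 CPM in SSC labelled Mettl3cko. In pre-BCSP it was at 18.9 and 13.9 CPM against 51.7 and 27.9 CPM, and in BCSP at 23.5 and 17.1 CPM against 33.1 and 32.01 CPM. Here too the 6 libraries of each genotype did not overlap, and 4.07% of 18655 genes had 6 and 6 libraries without overlap (2.12% with Mettl3cko higher).

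Within each population, none of the 6 Sox genes passed adjusted p below 0.05 by edgeR, nor did any other gene (0 of 16100, 16017 and 16322 in SSC, pre-BCSP and BCSP, with 2363, 1341 and 2123 genes at an unadjusted p below 0.05, and 661, 158 and 548 called by DESeq2). The log2 difference of Sox11 was 1.96 (SE 0.21, adjusted p = 0.145) in SSC, 1.93 (SE 0.49, adjusted p = 0.569) in pre-BCSP and 1.06 (SE 0.21, adjusted p = 0.206) in BCSP by edgeR. Its adjusted p by DESeq2 was 5.9e-15, 0.00303 and 0.000287. The log2 difference of Sox4 was 1.27 (SE 0.27, adjusted p = 0.161), 1.31 (SE 0.38, adjusted p = 0.569) and 0.68 (SE 0.28, adjusted p = 0.363) by edgeR, with adjusted p of 0.00406, 0.114 and 0.319 by DESeq2. In simulated input data of the SSC design, edgeR called 12% of log2 changes of 1 and 64% of those of 2. DESeq2 called 31% and 74%, with 33 unchanged genes called against 7 by edgeR. The lack of edgeR calls within a population therefore does not show that a Sox gene was unchanged.

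Leaving out Mettl3cko SSC input replicate 1 gave 1 call among the 18 tests, and leaving out Mettl3cko SSC input replicate 2 or pre-BCSP input replicate 2 gave 2 (edgeR).

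By the thresholds of the study for a changed gene, a log2 difference beyond 0.5 with an unadjusted p below 0.05, Sox11 and Sox4 passed in each population and the other 4 Sox genes in none, where 14%, 8.36% and 12.9% of genes passed in SSC, pre-BCSP and BCSP. Passing upwards in all 3 populations held for 1.05% of 14771 genes. In an analysis chosen after seeing the data, the 3 effects were averaged in 1 fit over the 12 input libraries. Sox11 was higher in Mettl3cko by 1.66 on the log2 scale (SE 0.21, adjusted p = 0.00194, edgeR) and Sox4 by 1.09 (SE 0.19, adjusted p = 0.00745), where 6.48% of 18655 genes were called. The replicate block gave 1.65 (adjusted p = 0.00155) and 1.08 (adjusted p = 0.00207, edgeR). Libraries of the same replicate number deviated together across the 3 populations, with correlations of 0.125 to 0.159 in WT and 0.0688 to 0.11 in Mettl3cko, so the 6 libraries of a genotype are not 6 independent samples and these p-values can be too small. With the 3 populations summed to 1 sample per genotype and replicate number, neither gene passed (Sox11 1.76, adjusted p = 0.142, and Sox4 1.10, adjusted p = 0.19, edgeR), and 0 of 19271 genes did, with 2747 at an unadjusted p below 0.05. Both passed in each of the 12 fits without 1 library, with ranges of 1.34 to 1.84 for Sox11 and 0.92 to 1.22 for Sox4. The effect was not shown to differ between populations for any of the 6 genes (adjusted p = 0.941 for Sox11, edgeR, with 0 genes called, 839 at an unadjusted p below 0.05 and 41 called by DESeq2).

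Sox9, Sox5, Sox6 and Sox8 did not pass a test between genotypes. In the same averaged fit the log2 differences were 0.07 (SE 0.10, adjusted p = 0.772) for Sox9, 0.21 (SE 0.12, adjusted p = 0.345) for Sox5, -0.01 (SE 0.17) for Sox6 and -0.27 (SE 0.24, adjusted p = 0.562) for Sox8. Sox9 was at 4978 and 5308 CPM in WT SSC and at 6601 and 5918 CPM in SSC labelled Mettl3cko, at 6091 and 6773 against 5592 and 5963 CPM in pre-BCSP, and at 4698 and 5839 against 5198 and 5543 CPM in BCSP. Sox5 libraries ranged from 145 to 205 CPM in WT and from 161 to 229 CPM in Mettl3cko, Sox6 from 73.3 to 142 and from 83.8 to 123, and Sox8 from 42.8 to 91.5 and from 42.3 to 73.6.

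The cartilage lists were read in the same averaged fit, in which 3.75% of all genes were called higher and 2.72% lower. Here 0 of 17 matrix genes passed in either direction (edgeR, median -0.16 against -0.05 over all genes). Of the 22 transcription factors and partners only Wwp2, a ubiquitin ligase and partner of Sox9, passed and was lower (-0.79, adjusted p = 0.00681, edgeR), and of the 9 hypertrophic genes only Ihh passed and was higher (1.05, adjusted p = 0.00353, edgeR). By the thresholds of the study within SSC, pre-BCSP and BCSP, 0, 1 and 0 matrix genes were higher and 0, 3 and 2 lower. Over all genes 6.96%, 3.88% and 7.22% were higher by these thresholds and 7.07%, 4.48% and 5.72% lower.

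Marker sums of other cell types also differed between these genotypes. The erythroid sum (7 of 7 genes found, Slc4a1 at 0 in all 6 WT libraries) was 12.1 to 52.4 CPM in the 6 Mettl3cko input libraries and 0.726 to 5.83 CPM in the 6 WT ones. The tendon and joint sum (5 of 5 found, none at 0 throughout) was 527 to 951 CPM in Mettl3cko and 1312 to 3470 CPM in WT. The chondrocyte sum overlapped, at 62150 to 131800 CPM in Mettl3cko. The part of these cells in the Sox4 and Sox11 values was not tested.

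The IP over input ratio was also compared between genotypes. Sox11 had replicate ratios of 1.24 and 0.36 in WT SSC and -0.50 and -1.21 in SSC labelled Mettl3cko, of 0.36 and -0.20 against -2.39 and -0.52 in pre-BCSP, and of -0.51 and -0.43 against -0.17 and -0.52 in BCSP. The Sox11 ratios of Mettl3cko were below those of WT in SSC and in pre-BCSP, and overlapped them in BCSP. The mean IP level of Sox11 itself was not lower in Mettl3cko. It was 193 CPM in WT SSC and 242 in Mettl3cko SSC, 249 and 283 in pre-BCSP, and 108 and 244 in BCSP. The denominators of these ratios are the input levels that were higher in Mettl3cko, so the ratio is not separate from the mRNA difference. The log2 change of the ratio was -1.60 (SE 0.45, adjusted p = 0.203, edgeR) in SSC, -1.81 (SE 0.64, adjusted p = 0.334) in pre-BCSP and 0.11 (SE 0.29, adjusted p = 0.999) in BCSP. By DESeq2 the adjusted p in SSC was 0.0413.

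Sox4 had ratios of 1.22 and 0.61 in WT SSC against 1.24 and 2.70 in SSC labelled Mettl3cko, of 0.65 and 1.37 against -0.49 and 1.85 in pre-BCSP, and of 0.25 and 0.30 against 0.25 and -0.26 in BCSP. Its log2 changes of the ratio were 1.07 (SE 0.62), -0.29 (SE 0.76) and -0.26 (SE 0.58), none past the test. Within Mettl3cko cells, Sox4 in SSC was the only Sox gene and population tagged by the rule of the study (log2 IP over input 2.11, adjusted p = 0.0837, edgeR), where 8.41% of genes were tagged. Without Mettl3cko SSC input replicate 2 no Sox gene was tagged, and without Mettl3cko pre-BCSP IP replicate 1 there were 2 tagged tests. Sox9 was below 0 in all 6 Mettl3cko replicates (-0.94 to -1.51) and Sox5 in all 6 (-0.40 to -1.14), while Sox6 was above 0 in all 6 (0.26 to 0.87). By edgeR, 0 of these 18 Mettl3cko tests passed at adjusted p below 0.05, where 0.62% of tests over all genes were higher and 0.311% lower. DESeq2 gave 1 higher and 4 lower, 1 joint fit over all populations gave 2 lower, and no filter on low counts gave 1 lower. With the pairing as a block, Sox9 in BCSP labelled Mettl3cko passed the test of IP over input (-1.11, adjusted p = 0.0433, edgeR). The edgeR test of the ratio between genotypes called 0 genes of the whole table in each population (2505, 2087 and 1814 genes at an unadjusted p below 0.05, and 1755, 983 and 717 called by DESeq2 in SSC, pre-BCSP and BCSP). With 2 libraries a group it did not recover changes put into simulated data of the SSC design, and DESeq2 called unchanged genes there. The lack of edgeR calls for the Sox genes therefore does not show whether their ratio changed.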

How the data were processed

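SLIM-seq read counts of 44 libraries were analysed. The authors trimmed reads with fastp 0.20.1, aligned them to GRCm38 with HISAT2 2.2.1 and counted reads per gene with featureCounts 2.0.1, and deposited raw, whole-number counts. Annotation and strand setting are not given in the sources used here. Deposited tables of the authors' own DESeq2 comparisons (fold changes and p-values of Mettl3-deleted against WT SSCs and of m6A-tagged genes) were not used. Of 46959 entries, 128 with date-like names, at most 0.39% of a library, were left out, and 46831 genes were kept (44784 matched a GENCODE vM21 symbol).

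Tests used edgeR 4.0.16 (quasi-likelihood F test, TMM, filterByExpr, Benjamini-Hochberg over all genes of a fit) in R 4.3.3 with limma 3.58.1. SE was taken as the size of the log2 fold change over the root of F. DESeq2 1.42.0, its size factors, no filter, a replicate block, 1 joint fit and leaving out each library were alternatives. Averaging the genotype effect over populations, or summing them per replicate number, was chosen after seeing the data. Genes were named by fixed lists and by their largest log2 difference, and the 3 genes most like each member by Pearson's r. Members and lists were chosen with earlier results of these data known. Fits were tested on simulated data. Deviations of IP and input of 1 replicate number, paired by a common sort, correlated at 0.0265 to 0.29. Plots were made with matplotlib 3.10.9 (Python 3.11.15).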

Additional observations from a re-analysis of the deposited data

How the results depend on the processing

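The log2 differences of the 6 Sox genes between stem and progenitor cells and downstream cells passed under DESeq2, DESeq2 size factors, no filter on low counts, the replicate block and each of 16 fits without 1 library. Called Sox tests between Mettl3cko and WT mRNA within a population numbered 0 of 18 by the adjusted p of edgeR, and 5 with no filter, 4 by DESeq2 and 2 with the replicate block, whose numbers mark no shared animals of the genotypes (correlation of deviations -0.00874 to 0.0237). In that block Sox11 and Sox4 of SSC had adjusted p of 0.00035 and 0.0366 (edgeR). The same 0 for the change of the ratio became 1 with no filter and 1 by DESeq2. Tagged Sox tests in WT numbered 2, and 1 with no filter. Called genes over the 3 populations between genotypes numbered 0, and 1578 with no filter, 1367 by DESeq2, 334 with the block and 19 in 1 joint fit, and for the ratio 0, 695, 3455 and, in 1 joint fit, 237. For the difference of effects between populations they numbered 0, 80 with no filter, 41 by DESeq2 and 2 with the block. Other counts that moved were 821 to 1464 for PCP with no filter, 1227 to 1953 for the stem ratio by DESeq2, and 1208 to 2408 by DESeq2 and 2200 with no filter for the averaged genotype effect, which was 0 with the 3 populations summed per replicate number, where the 2 Sox calls also became 0. The block changed no call beyond those given here and in the results. The cause was not tested.

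Leaving out 1 library gave 0 to 3 called Sox genes for PCP (0 without PCP input replicate 1, 1 without HEC input replicate 2), 1 to 3 tagged WT tests, 0 to 2 tagged Mettl3cko tests, 0 to 1 for the stem ratio, 0 to 2 for mRNA between genotypes, 5 to 6 by the study's thresholds and 0 to 1 for the ratio between genotypes (1 without Mettl3cko SSC IP replicate 1).

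Values near 0 changed sign. The IP over input of Sox11 was -0.16 with no filter and -0.11 in 1 joint fit in PCP, and -0.047 and -0.04 in BLSP. The stem ratio of Sox5 was -0.12 by DESeq2 and its size factors and -0.091 with no filter. The averaged genotype effect of Sox6 was 0.005 by DESeq2 and its size factors and 0.021 with the block.

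Without 1 library, ranges that crossed 0 were these log2 values. In PCP mRNA, Sox11 ran from -0.43 to 0.26 and Sox8 from -0.048 to 0.34. In IP over input of WT, Sox9 in SSC ran from -1.26 to 0.076, Sox11 in pre-BCSP from -0.10 to 0.37, Sox6, Sox4 and Sox11 in PCP from -0.035 to 0.35, -0.075 to 0.28 and -0.39 to 0.31, Sox8 in THY from -8.36 to 0.093, Sox11 in BLSP from -0.17 to 0.15 and in 6C3 from -1.14 to 0.043. In Mettl3cko, Sox4 ran from -0.057 to 1.40 in pre-BCSP and from -0.24 to 0.35 in BCSP. The stem ratio ran from -0.13 to 0.10 for Sox5 and from -0.054 to 0.32 for Sox11. Between genotypes, mRNA in SSC ran from -0.10 to 0.36 for Sox6 and -0.53 to 0.47 for Sox8, in pre-BCSP from -0.48 to 0.17 for Sox6 and -0.52 to 0.48 for Sox8, and in BCSP from -0.13 to 0.19 for Sox9, -0.026 to 0.45 for Sox5 and -0.26 to 0.38 for Sox6. The averaged effect of Sox6 ran from -0.11 to 0.11. The ratio change in SSC ran from -1.15 to 0.18 for Sox9, -0.43 to 0.33 for Sox6 and -0.23 to 0.86 for Sox8. In pre-BCSP it ran from -0.49 to 0.19 for Sox6, -1.16 to 0.26 for Sox4 and -0.35 to 1.25 for Sox8, and in BCSP from -0.36 to 0.11 for Sox5, -0.26 to 0.41 for Sox6, -0.57 to 0.016 for Sox4, -0.021 to 0.27 for Sox11 and -1.03 to 0.34 for Sox8. Where a left-out library leaves a group with 1, that library is assumed to vary like the others. Sox8 downstream lay at 1.35 to 5.99 CPM, and THY IP replicate 1 had 0 counts of it, so its THY ratios and the call they give rest on the added count.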
